A study of Mus musculus with 3 samples.

Results

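The proteasome genes were described here by the occupancy of their DNA by Ser5 Pol_II, RNA Pol_II that carries a phosphate on the fifth residue of its tail repeat, a form of the polymerase found near gene starts and in early elongation. The genes were chosen by symbol: protein-coding genes of the GENCODE M1 annotation of the mm9 mouse genome whose symbol begins with Psma, Psmb, Psmc, Psmd, Psme or Psmg followed by a number, without the immunoproteasome genes Psmb8, Psmb9 and Psmb10. This rule gave 46 genes of 22253 coding genes on chromosomes 1 to 19 and X. It uses no measured value, and it also takes in 2 genes that are not subunits in the usual sense: Psmc3ip encodes a partner of PSMC3 that works in meiotic recombination, and Psme2b-ps is an intronless copy of Psme2.

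The cells were primary macrophages grown from bone marrow of female Fvb mice (Fvb/Hsd in the methods) in medium with L929-conditioned supernatant and taken at the 7th day of differentiation. A first library holds Ser5 ChIP DNA from untreated cells, a second Ser5 ChIP DNA from cells given LPS (lipopolysaccharide, a bacterial cell wall component that activates macrophages) at 10 ng/ml for 2 h, and the third is input DNA of untreated cells, chromatin sequenced without immunoprecipitation. The number of animals behind each library is not given in the sources used here, no input of LPS-treated cells was analysed here, and one label of the study names LPS with γIFN for the stimulated Ser5 cells whereas the sample labels name LPS alone. With 1 library per condition there is no replicate check, so no test was run, and every difference below is between 2 libraries. Each range in parentheses after a count or ratio is a 95% interval for counting error only. A range after a median over genes is a 95% interval that reflects the spread between those genes.

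The libraries hold between 6249819 and 7616771 usable tags, which are aligned reads counted by their 5′ end, and levels are given as TPM, here tags (not transcripts) per 1000000 usable tags of the library, and per kb where a region's length matters. Tags of untreated Ser5 are 45 bases long and those after LPS 30 bases, and shorter tags are lost more often in repeated sequence. All 7 macrophage markers matched in the annotation had a Ser5 peak at the transcription start site (TSS) in both libraries, and all 6 LPS response genes examined were at least 2 times higher after LPS over the gene record, between 5.06 times for Irf1 and 396 times for Ccl5. Of the 15 markers of T cells, B cells, neutrophil precursors, fibroblasts and erythroid cells, Lck had a TSS peak in both libraries and Camp after LPS, and the others had no TSS peak. Over the gene record Lck and Cd3d had a peak in both libraries, Klf1 in untreated cells only, and Camp and Cd79a after LPS only.

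The proteasome degrades proteins tagged with ubiquitin. Its core particle is a barrel of alpha rings, which gate the entry, and beta rings, some of whose subunits cut proteins. A regulatory particle with a ring of ATPases and a set of non-ATPase subunits binds tagged proteins, removes the ubiquitin and feeds the unfolded chain into the core. Other activators can cap the core instead, and in cells exposed to interferon an activator made of Psme1 and Psme2 products and the immunoproteasome subunits are known to be made in larger amounts, which changes the peptides available for antigen presentation.

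Nearly all proteasome genes carried Ser5 at their start in untreated and in treated macrophages. A deposited peak overlapped the window of 1 kb on either side of the TSS in 43 of 46 genes in both libraries (background: 44.9% of all coding genes). In the window, the genes had a median of 11.6 TPM per kb in untreated cells and 11.99 after LPS, with 1.06 in the input, while the median over all coding genes was 0.919 and 0.72. Of the genes with enough tags (at least 10 in the pair of libraries), 44 of 44 in untreated cells and 43 of 43 after LPS had at least 2 times the input in the window (background 72.2% and 70.7%). Summed over the genes, the window held 8607 tags untreated, 6983 after LPS and 787 in the input, or 10.8 times the input (10.1 to 11.7) without LPS and 10.7 times (9.93 to 11.53) with it. With scaling to tags outside the Ser5 peaks these ratios were 20.6 and 21.9. Over the gene record, 43 of 46 genes held a peak in untreated cells (background 53.3%), after LPS (background 50.6%) and in both (background 49.1%), and at least 2 times the input was found in 32 of 46 genes without LPS (background 37.5%) and in 37 of 45 with it (background 32.9%). At the TSS alone the backgrounds of a peak in untreated cells and after LPS were 48% and 45.9%. The highest peak at each of the 43 TSSs had a median score (−10 × log10 of the peak caller's p-value) of 1037 in untreated cells and 860.3 after LPS, where the highest TSS peak of all coding genes that had one (10675 and 10221 genes) had a median of 1099 and 735.8.

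**Figure D1:**
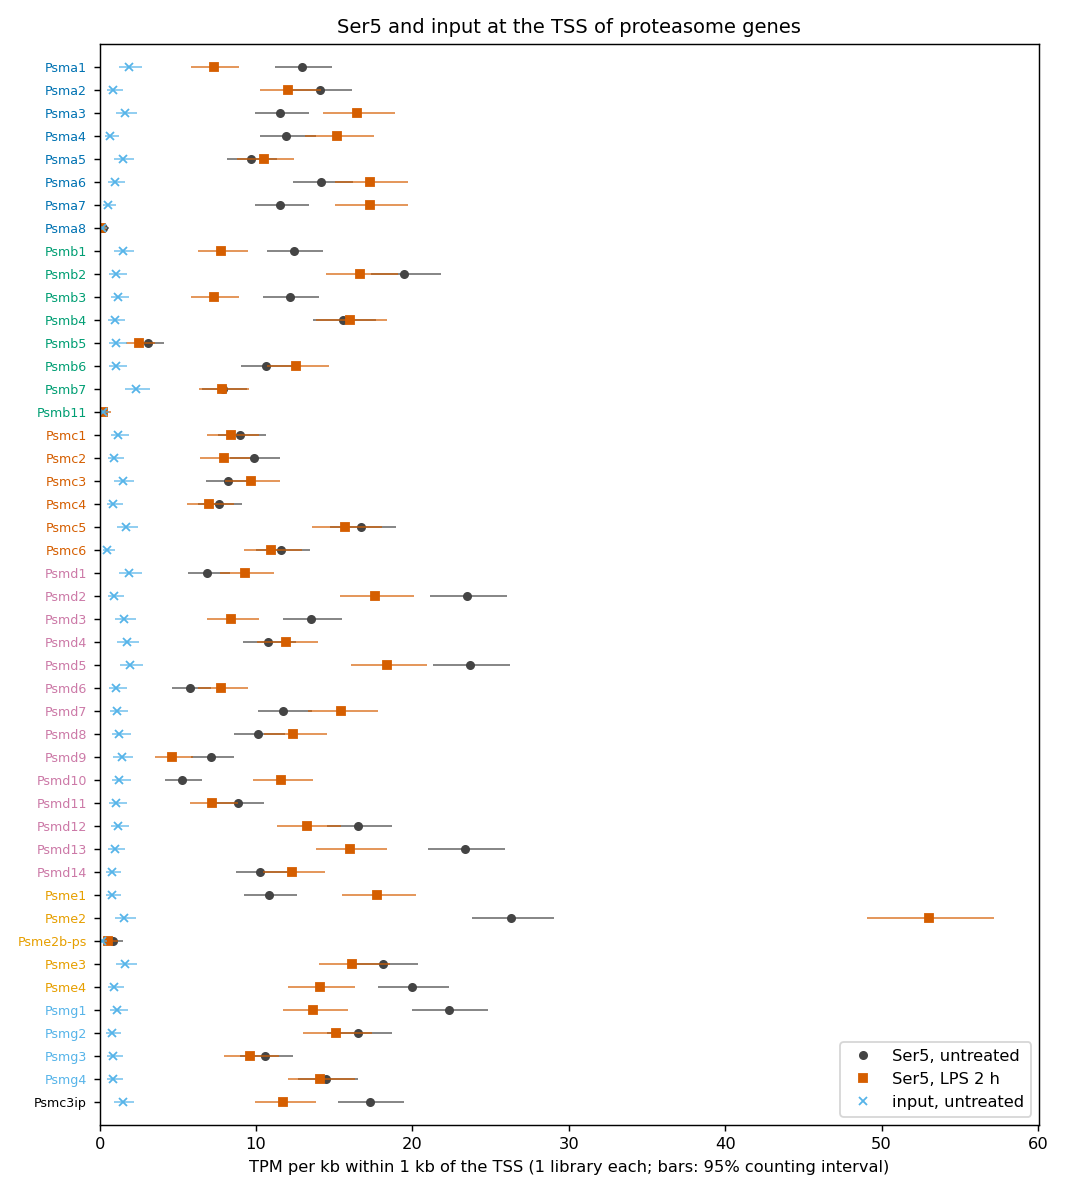
Each line shows the tag density within 1 kb of the TSS (TPM per kb, horizontal axis) of a proteasome gene in untreated Ser5 (grey circles), Ser5 after LPS (orange squares) and input (blue crosses), with exact Poisson intervals of the single libraries as bars and gene names coloured by role. Psme2 stands furthest to the right, at 26.3 untreated and 53.0 after LPS, and Psma8, Psmb11 and Psme2b-ps lie at the left edge, below 1.

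The 3 genes without a peak are forms that other tissues use or a copy. Psma8, the alpha subunit of the testis, had 3 tags in the TSS window in untreated cells, 1 after LPS and 2 in the input, and over its gene record it had 56, 35 and 121 tags, or 0.458 times the input in untreated cells (0.327 to 0.633, and 0.871 times when each library is scaled to its tags outside Ser5 peaks). Psmb11, the catalytic subunit of the thymic epithelium, had 0, 3 and 3 tags at its TSS, where a count of 0 allows up to 3 tags, and 10, 4 and 9 over its record. Psme2b-ps had 13, 7 and 2 tags at its TSS and 9, 6 and 1 over its record, lies within the records of 9930111J21Rik1 and Gm12185, and 57.8% of the 30-base sequences in it occur elsewhere in the genome, so that its reads cannot be separated well from those of other copies. The 2 tissue-restricted genes thus had no more than 3 tags at the TSS in any library. Among the others the lowest TSS level was that of Psmb5, which encodes a catalytic beta subunit, with 47, 31 and 16 tags and a peak at the start in both libraries (scores 105.6 and 109).

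Around the TSS the tags of the 44 genes with at least 10 Ser5 tags in the window formed a single crest. Counted in steps of 100 bp, the highest step lay 0 to 100 bp downstream of the TSS in both Ser5 libraries, with 1951 tags untreated and 1506 after LPS, or a mean of 5.82 and 5.48 TPM per gene. The highest step of the input held 0.19.

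**Figure D2:**
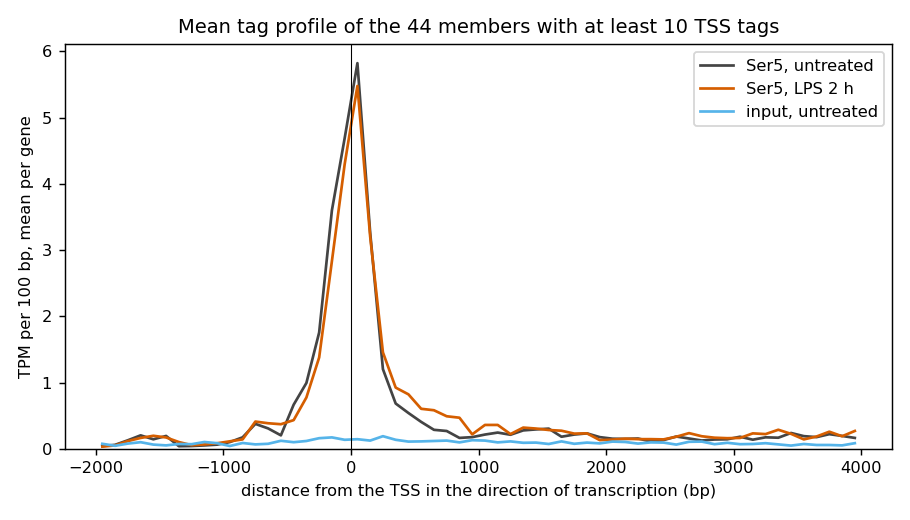
The curves give the mean TPM per 100 bp and gene (vertical axis) against the distance from the TSS in the direction of transcription (horizontal axis, bp) for the 44 genes, in untreated Ser5 (grey), Ser5 after LPS (orange) and input (blue). Both Ser5 curves peak in the first 100 bp after the TSS, at 5.82 and 5.48, and the input never exceeds 0.19.

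The question of the LPS comparison was which of these genes gained or lost Ser5 within 2 h. Most differed by less than 2 times. Over the gene record (annotated start to end), 2 of 46 genes, Psme2 and Psmd10, were at least 2 times higher after LPS (background 5.82%) and 1, Psmb11 with its 10 and 4 tags (0.488, 0.112 to 1.69), at least 2 times lower (background 11.2%). In the TSS window the same 2 genes were at least 2 times higher of 44 with enough tags (background 5.72%), and 0 were lower (background 14.1%). At 1.5 times, 6 gene records were higher (background 12%) and 2 lower (background 25.1%), and 3 TSSs were higher (background 10.3%) and 7 lower (background 29.1%). The median ratio of LPS to untreated over the gene records was 0.998 (0.856 to 1.22), where it was 0.874 for all coding genes, and 23 of 46 genes lay above 1 (background 36.6%). At the TSS it was 0.924 (0.813 to 1.09) against 0.834, with 17 of 44 genes above 1 (background 31.5%), while the summed TSS tags were nearly even (0.989, 0.958 to 1.02). The summed tags of all coding genes gave 0.928 at the TSS and 1.035 over the gene records. Using tags that fall in no Ser5 peak of either library as the total, instead of all tags, moved the median of all coding genes from 0.874 to 0.941 over the gene records and from 0.834 to 0.898 at the TSS, a shift of 0.11 on the log2 scale, and with it the proteasome medians to 1.07 and 0.994. The direction of the gene-record median therefore depends on the scaling. Relative to the median of all coding genes, which moves by the same factor, 28 of 46 gene records lay higher.

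Counting error gave a finer sorting than the size rule. The interval of the gene-record ratio lay above 1 for 14 genes (30.4%, background 15%), below 1 for 8 (17.4%, background 34.5%) and held 1 for 24. At the TSS it lay above 1 for 9 of 44 (20.5%, background 11.9%) and below 1 for 12 (27.3%, background 37.9%). The share on the higher side was above that of all coding genes and the share on the lower side under it, in both regions. Whether an interval lies off 1 also depends on the number of tags, and the shares were not matched for it. The proteasome genes had the higher median level at the TSS, as given above. The counts of intervals off 1 moved with the scaling. With tags outside peaks as the total, 18 gene records lay above 1 (39.1%, with 18.8% of all coding genes) and 4 below (8.7%, with 28.1%), and 13 TSSs lay above 1 (29.5%, with 15.6%) and 11 below (25%, with 30.2%). Psmb7, Psmc3, Psmc3ip and Psmd12 then no longer lay below 1 over the record with the whole interval, and Psma4, Psmb6, Psmd1 and Psmd5 lay above it. With 1 tag counted per position the intervals of Psmc3 and Psmd4 over the record and of Psmd5, Psmd12 and Psme4 at the TSS held 1.

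**Figure D3:**
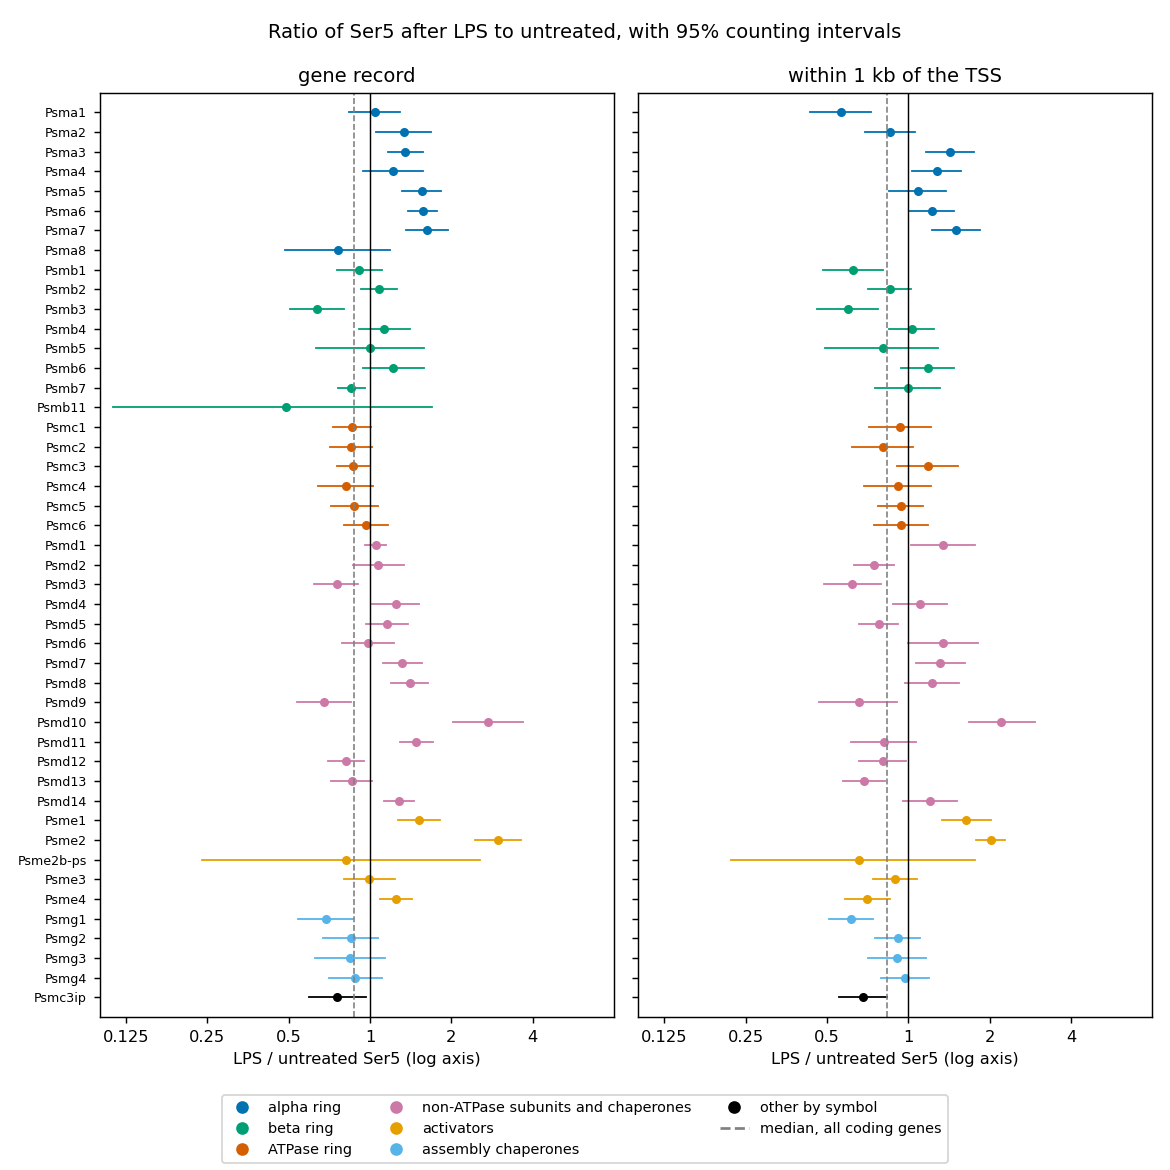
Points give the ratio of Ser5 after LPS to untreated (horizontal log axis) over the gene record (left) and within 1 kb of the TSS (right) for every proteasome gene with at least 10 tags, coloured by role, with exact 95% counting intervals as bars, a solid line at 1 and a dashed line at the median of all coding genes (0.874 and 0.834). Psme2 and Psmd10 stand apart on the right of both panels, the alpha ring lies mostly to the right of 1 on the left panel, and the ATPase ring lies to the left of it there.

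Among the activators, Psme2 had the largest gene-record ratio of all 46 genes, while at the TSS that of Psmd10 was larger (2.21). Psme1, whose product forms the same activator ring, was also higher after LPS. Psme2 (ENSMUSG00000079197.4, chr14:56206278-56209950, minus strand) had 149 tags over its record untreated, 364 after LPS and 22 in the input, a ratio of 2.98 (2.45 to 3.63). In its TSS window the counts were 401, 663 and 23, the highest Ser5 count of any proteasome gene in either library, with a ratio of 2.02 (1.78 to 2.29). Its TSS level was thus above that of every other member already before treatment, and the intervals of the 2 libraries do not overlap. The 2 kb after its end held 74 tags, then 211, or 4.86 and 16.88 TPM per kb. The record beyond its first 1 kb had 2.06 and 7.30. Other genes in these 2 kb were not examined, so their tags cannot be assigned to Psme2. Psme1 (ENSMUSG00000022216.10, chr14:56196960-56200366, plus strand) had 230, 286 and 18 tags over its record, a ratio of 1.52 (1.27 to 1.81), and 165, 222 and 12 at the TSS, a ratio of 1.64 (1.33 to 2.02). Both genes were higher after LPS, Psme2 by more than Psme1 over the record, where their intervals are separate.

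The other activators did not follow them. Psme3, whose product forms the nuclear activator, had 190 and 155 tags over its record (0.994, 0.799 to 1.24), with 276 and 202 at the TSS. Psme4, which encodes a large single-chain activator, had 304 tags at the TSS untreated and 176 after LPS (0.706, 0.583 to 0.852), while over its record of 108636 bp it had 424 and 435, with 426 in the input (1.25, 1.09 to 1.43). The record of Psme4 was thus close to the input in untreated cells (0.984 times, 0.859 to 1.13, and 1.87 times with scaling to tags outside peaks). Psme2b-ps had a ratio of 0.813 (0.238 to 2.56).

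The promoters of the activator pair are shown here because both genes were higher after LPS, in mm9, from 250 bases before to 50 after the TSS, written 5′ to 3′ on the strand of the gene with every match to GGGCGG or its reverse complement CCGCCC (the GC box, bound by Sp1 family factors) in capitals. The Psme2 window is chr14:56209875-56210174 on the minus strand and the Psme1 window chr14:56196947-56197246 on the plus strand.
Psme2: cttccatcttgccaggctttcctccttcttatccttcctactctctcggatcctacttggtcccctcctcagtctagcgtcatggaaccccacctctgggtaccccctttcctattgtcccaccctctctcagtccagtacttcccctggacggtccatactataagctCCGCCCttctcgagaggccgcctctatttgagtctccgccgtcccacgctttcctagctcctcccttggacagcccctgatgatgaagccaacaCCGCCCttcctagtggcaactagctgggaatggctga
Psme1: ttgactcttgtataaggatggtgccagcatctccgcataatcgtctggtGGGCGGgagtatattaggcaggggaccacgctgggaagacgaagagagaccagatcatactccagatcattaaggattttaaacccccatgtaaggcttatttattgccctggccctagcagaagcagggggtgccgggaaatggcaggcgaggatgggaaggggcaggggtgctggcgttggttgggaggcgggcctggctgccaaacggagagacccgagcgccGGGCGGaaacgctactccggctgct
Each window holds 2 matches to the GC box and 0 to the other 6 motifs searched (named further on), which include GAAA blocks with any 2 bases between them and TTCNNNGAA, letters typical of interferon-responsive elements. This describes these 300 bases only.

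Psme2 shares its start region with Rnf31, which encodes a subunit of the linear ubiquitin ligase, lies on the opposite strand and has its TSS 621 bp away. ChIP tags within the shared window cannot be assigned to one of the genes. Beyond the first 1 kb, the Psme2 record had 42 tags untreated and 122 after LPS (3.54, 2.47 to 5.15), and the Rnf31 record 240 and 447 (2.27, 1.94 to 2.67). Both genes of the pair were therefore at least 2 times higher after LPS in the stretch that they do not share.

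The immunoproteasome genes left out by the rule stood beside Psme1 and Psme2. Psmb8 had 240 tags over its record untreated and 569 after LPS (2.89, 2.48 to 3.37), Psmb9 243 and 551 (2.76, 2.37 to 3.23) and Psmb10 314 and 464 (1.80, 1.56 to 2.09). Their standard counterparts in the core are the genes of the catalytic subunits Psmb5, Psmb6 and Psmb7. Psmb5 had 45 and 37 tags (1.00, 0.631 to 1.58), Psmb6 120 and 120 (1.22, 0.938 to 1.58) and Psmb7 717 and 501 (0.852, 0.758 to 0.956). Each of the 3 immunoproteasome genes lay above 1 with its whole interval (background 15%). Of the 3 standard counterparts none did, but Psmb6 did with scaling to tags outside peaks (1.31, 1.01 to 1.70) and with tag starts unique over 30 bases (1.35, 1.04 to 1.77).

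**Figure D4:**
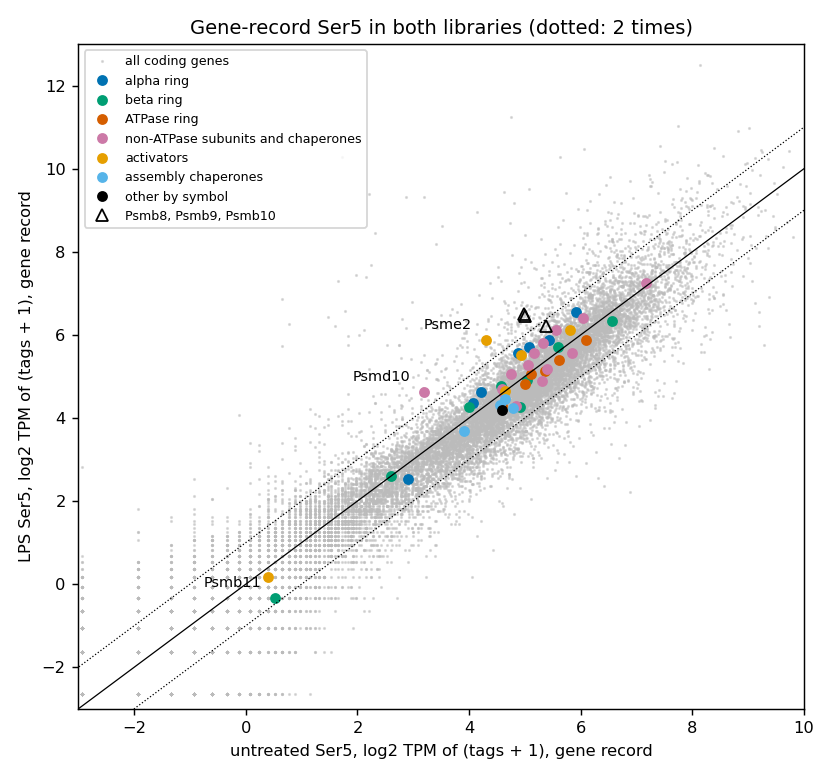
Each point is a coding gene, placed by its tags over the gene record plus 1, as TPM on a log2 scale, in untreated Ser5 (horizontal axis) and after LPS (vertical axis), with all coding genes in grey, proteasome genes coloured by role and the 3 immunoproteasome genes as open triangles. Solid and dotted lines mark equality and a difference of 2 times. Psme2 and Psmd10 lie above the upper dotted line together with Psmb8 and Psmb9, and most other proteasome genes lie near the solid line.

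In the alpha ring 7 of 8 genes lay above 1 over the gene record, 5 of them with the whole interval (36.6% and 15% of all coding genes, to be set beside the groups that follow as well), and the exception was the testis form Psma8 (0.762, 0.485 to 1.18). The same 7 of 8 were above 1 with either scaling and with 1 tag counted per position. The highest was Psma7 (ENSMUSG00000027566.8, chr2:179771078-179777138, minus strand), with 222 tags untreated, 295 after LPS and 27 in the input (1.62, 1.36 to 1.94). Psma6 had 458 and 589 tags (1.57, 1.39 to 1.78) and Psma5 255 and 325 (1.55, 1.31 to 1.84), and Psma3, with 21.8% of its record under 3110056K07Rik, followed with 329 and 365 (1.35, 1.16 to 1.57). Over the alpha ring the summed tags gave 1.41 (1.32 to 1.501), where those of all coding genes gave 1.035. At the TSS the picture was mixed, from 0.563 for Psma1 (197 and 91 tags, 0.434 to 0.725) to 1.496 for Psma7 (176 and 216 tags, 1.22 to 1.84), with 5 of 7 genes above 1 (background 31.5%).

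The beta ring was divided. Over the gene record 4 of 8 genes lay above 1 (background 36.6%), none with the whole interval (background 15%). Psmb3 and Psmb7 lay below 1 with theirs (background 34.5%). With scaling to tags outside peaks Psmb6 lay above 1 with its interval, as given above, and Psmb7 no longer lay below it (0.916, 0.816 to 1.03). Psmb3, which encodes a subunit without catalytic activity, was the lowest gene among those with at least 50 tags (ENSMUSG00000069744.7, chr11:97564713-97574814, plus strand), with 227 tags untreated, 119 after LPS and 45 in the input (0.639, 0.507 to 0.801) and 185 and 91 at the TSS (0.600, 0.461 to 0.775). Psmb6 was the highest, and Psmb1 had 248 and 186 tags (0.914, 0.752 to 1.11) but 189 and 97 at the TSS (0.626, 0.485 to 0.803). So the catalytic and structural beta genes did not separate by direction.

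The promoter of Psmb3 is shown as that of the lowest gene with at least 50 tags, in the same window (chr11:97564463-97564762, plus strand). Matches to the GC box, to CCAAT and to GAAA blocks 2 bases apart, or to their reverse complements, are in capitals.
Psmb3: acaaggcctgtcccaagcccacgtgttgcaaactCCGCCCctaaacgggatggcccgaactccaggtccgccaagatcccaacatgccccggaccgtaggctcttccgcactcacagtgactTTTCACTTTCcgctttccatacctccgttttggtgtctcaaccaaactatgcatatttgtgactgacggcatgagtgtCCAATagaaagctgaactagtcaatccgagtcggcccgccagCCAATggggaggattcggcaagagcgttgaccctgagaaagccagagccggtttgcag
It holds 4 matches. The pair of GAAA blocks also occurred in the windows of Psmg4, Psmd4, Psmd9, Psmd7 and Psma4, and not in those of Psme1 and Psme2. The gene-record ratios of the genes with this motif ran from 0.639 (Psmb3) to 1.32 (Psmd7).

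The ATPase ring formed the tightest group. All 6 genes had gene-record ratios between 0.813 and 0.967, with a median of 0.861, close to the 0.874 of all coding genes. Their summed tags gave 0.871 (0.812 to 0.935), under the 1.035 of the summed tags of all coding genes. With scaling to tags outside peaks, or with 1 tag counted per position, Psmc6 moved above 1 (to 1.04 and 1.07). The lowest was Psmc4, with 183 tags untreated, 122 after LPS and 29 in the input (0.813, 0.641 to 1.03), and the highest Psmc6, with 261, 207 and 106 (0.967, 0.802 to 1.16). The whole interval lay below 1 for 1 of 6 genes (background 34.5%) and above it for 0 (background 15%). The 1 gene was Psmc3 (517 and 367 tags, 0.865, 0.755 to 0.991), whose record shares 37% of its bases with Slc39a13. Its interval held 1 over the bases free of other genes (0.848, 0.714 to 1.01), with scaling to tags outside peaks (0.931, 0.812 to 1.07) and with 1 tag per position (0.874, 0.752 to 1.01). At the TSS the 6 genes spanned 0.804 to 1.18 and every interval held 1 (11.9% of all coding genes lay above 1 with theirs and 37.9% below).

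The non-ATPase group, which holds scaffold, lid and ubiquitin-handling subunits and the assembly chaperones of the regulatory particle, had a wide spread, from 0.676 to 2.72. Over the gene record 9 of 14 genes lay above 1 (background 36.6%), 6 with the whole interval (background 15%), and 3 lay below 1 with theirs (background 34.5%). Psmd10, which encodes gankyrin, a chaperone that assembles the ATPase ring, was the highest (ENSMUSG00000031429.8, chrX:137482968-137491267, minus strand). Its record had 69 tags untreated, 154 after LPS and 42 in the input (2.72, 2.04 to 3.67), and its TSS window 80, 145 and 19 (2.21, 1.67 to 2.94). This was a low gene that approached the others: its TSS level of 5.25 TPM per kb in untreated cells was under the median of the proteasome genes, and its 11.6 after LPS was next to it. With 1 tag counted per position the TSS ratios of Psme2 and Psmd10 were 1.994 and 1.960, just under 2 times.

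Psmd9 and Psmd5, the other chaperones of the regulatory particle, did not share this. Psmd9 was the lowest of the group, with 218 tags untreated, 121 after LPS and 114 in the input (0.676, 0.537 to 0.849), but over the bases free of Gm17627, which covers 12% of it, the interval held 1 (0.795, 0.586 to 1.07). Psmd5 had 252 and 239 tags over its record (1.16, 0.964 to 1.39) and 361 and 230 at the TSS (0.777, 0.655 to 0.919). Psmd14, which encodes the deubiquitinase of the lid, had 501, 526 and 472 tags (1.28, 1.13 to 1.45), and Psmd4, which encodes a ubiquitin receptor, had 203 and 207 (1.24, 1.02 to 1.52). Of the large scaffold subunits, Psmd1 had 1097 and 945 tags (1.05, 0.961 to 1.15), with 21% of its record under other genes, and Psmd2 had 183 and 161 (1.07, 0.862 to 1.33). Lid subunits lay on both sides: Psmd11 had a ratio of 1.49 (1.29 to 1.71), Psmd8 1.404 (1.20 to 1.64) and Psmd7 1.32 (1.11 to 1.56), whereas Psmd3 had 0.752 (0.622 to 0.906) and Psmd12 0.814 (0.700 to 0.947).

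Psmd10 also starts back to back with another gene. The TSS of Atg4a, which encodes an autophagy protease, lies 218 bp away on the opposite strand. Beyond the first 1 kb the Psmd10 record had 24 tags untreated, 48 after LPS and 33 in the input (2.44, 1.46 to 4.16), and Atg4a had 114, 150 and 211 (1.60, 1.25 to 2.06). The untreated count of Psmd10 and both Ser5 counts of Atg4a were under the input. These ratios thus rest partly on tags at the level of the input. Of the Ser5 tags of Psmd10 in the window and downstream of it, 76.9% in untreated cells and 76.3% after LPS were in the shared window. Its promoter is shown for this reason and was chosen after its values were seen (chrX:137491179-137491478, minus strand, with matches to the GC box and to CCAAT or their reverse complements in capitals).
Psmd10: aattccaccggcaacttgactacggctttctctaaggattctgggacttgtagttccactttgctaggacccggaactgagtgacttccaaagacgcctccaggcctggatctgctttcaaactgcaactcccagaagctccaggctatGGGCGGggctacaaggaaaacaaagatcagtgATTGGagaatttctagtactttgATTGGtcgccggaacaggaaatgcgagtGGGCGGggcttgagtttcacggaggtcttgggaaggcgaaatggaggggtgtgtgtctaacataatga
It holds 2 matches to each of these motifs.

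The assembly chaperones of the core, Psmg1 to Psmg4, all lay below 1 over the gene record, between 0.686 and 0.883, with their summed tags at 0.808 (0.716 to 0.911, with 1.035 for all coding genes). Their median of 0.846 was near the 0.874 of all coding genes, of which 36.6% lay above 1. The whole interval lay below 1 for 1 of 4 genes (background 34.5%). All 4 stayed below 1 with scaling to tags outside peaks and with 1 tag counted per position. Psmg1 was the lowest, with 208 tags untreated, 117 after LPS and 46 in the input (0.686, 0.542 to 0.864) and 340 and 171 at the TSS (0.613, 0.507 to 0.739), and Psmg4 the highest, with 189, 137 and 54 (0.883, 0.704 to 1.11). Psmg2 had 177 and 123 tags and Psmg3 114 and 79. Psmc3ip, the meiotic gene named for its partner, had 182 and 113 tags over the record (0.757, 0.593 to 0.962) and 263 and 147 at the TSS, with 10.7% of its record under Mlx.

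Some proteasome genes start close to another gene. In 9 of 46 (19.6%) another coding TSS lay within 1 kb, in all 9 on the opposite strand, where 10.4% of all coding genes had such a neighbour on either strand. Beside Psme2 and Psmd10 these were Psma7 with Ss18l1 (76 bp), Psmc5 with Ftsj3 (75 bp), Psmc2 with Dnajc2 (32 bp), Psmd13 with Sirt3 (99 bp), Psma4 with AY074887 (164 bp), Psma2 with Mrpl32 (217 bp) and Psmg2 with Cep76 (263 bp). Beyond the first 1 kb, Psma7 had 133 tags untreated and 161 after LPS (1.48, 1.17 to 1.87) and Ss18l1 105 and 83 (0.963, 0.714 to 1.297), so that the point values lay on either side of 1 within this pair. Psmc5 had 134 and 79 (0.719, 0.537 to 0.956) and Ftsj3 180 and 131 (0.887, 0.703 to 1.12). Psmc2 had 287 and 209 (0.888, 0.739 to 1.06) and Dnajc2 184 and 116 (0.768, 0.604 to 0.975). In these 2 pairs both genes lay below 1. Psmd13 had 138 and 112 (0.989, 0.764 to 1.28) and Sirt3 246 and 185 (0.917, 0.753 to 1.11), and Psmg2 had 67 and 33 (0.600, 0.383 to 0.924) and Cep76 78 and 60 (0.938, 0.658 to 1.33). Psma2 had 64 and 91 (1.73, 1.25 to 2.43), with 1 and 5 tags for Mrpl32, and Psma4 had 74 and 65 (1.07, 0.755 to 1.51), with 0 for AY074887 in all libraries. In the same stretch the input held 118 tags for Ss18l1 and 102 for Cep76, more than either Ser5 library. It held 64 for Psma2, 114 for Dnajc2 and 47 for Psmg2, near or above 1 of the Ser5 counts, so these ratios rest partly on tags at the level of the input. For the genes without such a neighbour, a set formed after seeing the data, the summed TSS ratio was 0.919 (0.886 to 0.954). In this set 0 of 35 were at least 2 times higher at the TSS (background 5.72%). That count was fixed beforehand, since Psme2 and Psmd10, the only genes past 2 times there, have such a neighbour.

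Several genes had lower Ser5 at the TSS after LPS and higher Ser5 further on. To measure this without any scaling between libraries, tags in the TSS window were set against those from its end to the end of the gene, and the odds of untreated to LPS were formed, so that a value above 1 means a smaller share of tags at the TSS after LPS. It lay above 1 in 27 of 43 genes (62.8%, with 54.7% over all coding genes), with the whole interval above 1 in 12 (background 17.2%) and below 1 in 3 (background 12.3%). These shares were not matched for the number of tags either. The largest odds ratio was that of Psma1, with 197 tags at the TSS and 76 downstream in untreated cells and 91 and 89 after LPS (2.53, 1.70 to 3.74). Psma2 had 215 and 64, then 151 and 91 (2.02, 1.38 to 2.95). Psmd11 had 135 and 282, then 90 and 375 (1.99, 1.46 to 2.71). The downstream input held 60 tags for Psma1, 64 for Psma2 and 204 for Psmd11. The untreated downstream counts of Psma1 and Psma2 were thus near that of the input. In these 3 genes the TSS count was lower after LPS, and the downstream count was higher even as raw tags, although the LPS library is the smaller one.

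The other 9 with the whole interval above 1 were Psma5, Psma6, Psmb1, Psmb2, Psmd2, Psmd5, Psmd13, Psme2 and Psme4. In most of them the TSS ratio was below 1, but in Psma5, Psma6 and Psme2 both regions were above 1, and Psme2 had 41 tags downstream untreated and 121 after LPS (3.60, 2.51 to 5.26). For Psme4 the 316 and 344 downstream tags compare with 420 in the input. The 3 genes with the whole interval below 1 were Psmc3 (0.660, 0.492 to 0.886), Psmd6 (0.574, 0.377 to 0.877) and Psmg4 (0.372, 0.197 to 0.705). Psmg4 had 45 downstream tags in untreated cells, 13 after LPS and 47 in the input, and 49.7% of the 30-base sequences of its record are repeated elsewhere in the genome. The part of the tag length in this value was not tested.

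**Figure D5:**
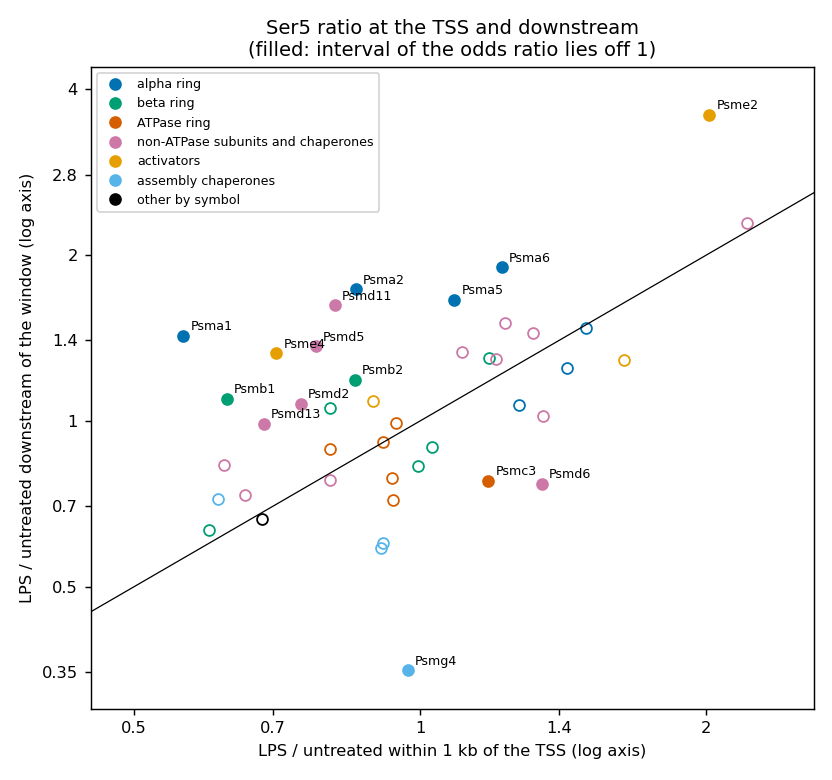
For each of the 43 proteasome genes with enough tags in both regions, the ratio of LPS to untreated Ser5 within 1 kb of the TSS (horizontal log axis) is set against the ratio from there to the gene end (vertical log axis), coloured by role, with a solid line at equality. Filled and named points are the 15 genes whose odds ratio has a counting interval off 1: 12 lie above the line, with Psma1 and Psma2 to the left of 1, and Psmc3, Psmd6 and Psmg4 lie below it.

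Genes that act with the proteasome were taken from a list by function. Of 11 associated genes matched in the annotation, 1 was at least 2 times higher over the gene record (background 5.82%), Nfe2l2 with 2060 and 3423 tags (2.03, 1.92 to 2.14), which encodes the transcription factor of the antioxidant response, and 1 at least 2 times lower (background 11.2%), Ddi2 with 1071 and 430 (0.489, 0.437 to 0.548), which encodes a protease that activates the NFE2L1 protein. Nfe2l1 itself, which encodes a factor that drives proteasome genes, had 1533 and 1543 (1.23, 1.14 to 1.32), and Pomp, the maturation factor of the core, 264 and 302 (1.39, 1.18 to 1.65). The deubiquitinase gene Uchl5 had 319 and 176 (0.672, 0.556 to 0.811), and the ubiquitin receptor gene Adrm1 232 and 186 (0.977, 0.801 to 1.19). Of 12 genes of ubiquitin supply and delivery 0 passed 2 times in either direction, and their median was 1.01 (0.905 to 1.13).

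The promoters had somewhat more CpG than those of all coding genes, with a median of 20 CpG per 300 bases (12 over all 22253) and a median GC content of 57.7% (55.7%). Motifs were searched on both strands (TTCNNNGAA reads the same on either, and no motif contains another), and none of the matches shows that a factor was bound. The GC box occurred in 28 of 46 promoters (60.9%, with 44.7% of all), CCAAT in 39.1% (37.6%), TGACNNNGC, the core of the antioxidant response element, in 15.2% (12.6%), TTCNNNGAA in 6.52% (7.85%) and GGGA followed after any 2 bases by TTCC, a site type of NF-kB, in 2.17% (1.52%). The motifs CCGGAAGT, a site type of ETS family factors, and the pair of GAAA blocks were found in 8 and 6 promoters (17.4% and 13%, with 4.86% and 3.87% of all). The stretches around CCGGAAGT are given because of this higher share, read 5′ to 3′ on the strand of the motif, with the motif in capitals and without that of Psma8.
Psme4: cccgccCCGGAAGTgacttg
Psme3: ctcacgCCGGAAGTtgcgtc
Psmd12: ctcgcaCCGGAAGTcgcccg
Psmc1: ccaccgCCGGAAGTgcatcc
Psmd6: acgcgaCCGGAAGTcagact
Psmc2: cccatcCCGGAAGTgctcac
Psmg3: caggaaCCGGAAGTtctcgc
In 4 of these 7 the match began within 13 bases of the TSS: at 4 bases before it in Psme4, 1 after it in Psme3, 13 before it in Psmc1 and 6 before it in Psmd6. None of the 8 genes was at least 1.5 times higher after LPS over the gene record (background 12%), and 8 genes are too few to set apart from that share. Their gene-record ratios ran from 0.762 (Psma8) to 1.25 (Psme4).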

How the data were processed

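Each library had been aligned by the authors to mm9 with Bowtie (version not given in the sources used here), keeping uniquely mapped reads, and the deposited tag files give each tag's start, end and strand with duplicates kept. The methods give 30-base tags for untreated Ser5 and 45 for LPS, and the deposited files hold the reverse. Peaks were called by the authors with MACS separately for untreated and LPS Ser5, with the input as control and a p-value threshold of 1e-05, and the deposited peak score is −10 × log10 of that p-value. A readme was not used.

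Tags on chromosomes 1 to 19 and X (7616771 untreated, 6249819 LPS, 7533308 input, of 7624549, 6259018 and 7547185) were counted by 5′ end, as TPM, over the gene record and within 1 kb of the TSS of the coding transcript with the longest coding sequence. Psmd14, with 2 overlapping records (47 records for 46 genes), was counted once. A peak counts when it overlaps by at least 1 bp. Samples were grouped by their labels. With 1 library per condition no test was possible, and a gene was called higher or lower at 2 times if the pair of Ser5 libraries held 10 tags or more, 0 tags being set to 0.5. Intervals (95%) are exact Poisson for counts, exact conditional on the sum for ratios, Woolf for odds ratios and by order statistics over genes for medians. Reads carried no molecular identifiers. Intervals of counts, ratios and odds ratios cover counting error only, as does the floor of 3 tags for a count of 0. Those of medians reflect the spread between genes.

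Genes given in full are the highest and lowest of each role with at least 50 tags, those past 2 times, those without a TSS peak and those with another coding TSS within 1 kb. Promoters are shown for the highest and lowest gene-record ratio among genes with at least 50 tags, for Psme1 and Psme2 and for the highest TSS count. That of Psmd10 was added after its values were seen. The members, lists and rules were chosen with earlier results of these data known, and roles were assigned by hand. Paaf1 and Spi1 of the lists were not matched. The alternatives were duplicate tags removed, a shift of tags by 75 bp, scaling to tags in no Ser5 peak (50.2%, 46.7% and 95.5% of tags), tag starts unique over 30 bases, other folds, minima, windows and gene spans, stricter peaks (score of at least 100) and a 100-bp overlap, and, added after seeing the data, bases free of other genes, genes without a close TSS, and the set without Psme1 and Psme2. Genome sequence was that of the same assembly (NCBIM37). Python 3.11.15, numpy 2.4.6, pandas 2.3.3, scipy 1.17.1, numba 0.67.0 and matplotlib 3.10.9 were used, and the functions for counts, overlaps and intervals were checked on simulated data.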

Additional observations from a re-analysis of the deposited data

How the results depend on the processing

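Of 98 values recomputed under the alternatives, 74 stayed within the interval of the value reported, or within 1.5 times for a count, and 24 did not. That interval covers counting error for ratios of summed tags and the wider spread between genes for medians. None reversed a called direction. The cause was not tested unless the alternative itself gives it.

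Scaling to the tags outside peaks moved the summed gene-record ratio from 1.10 to 1.18, the summed TSS ratio from 0.989 to 1.06, the gene-record ratio to input to 4.69 (untreated) and 5.54 (LPS), the TSS ratio to input to 20.6 and 21.9, and the count of lower gene records from 1 to 0. With 1 tag per position the summed TSS ratio was 1.04, the TSS ratio to input 9.54 and 9.92, the count of higher TSSs 0 and that of lower gene records 0. A fold of 1.5 gave 6 higher and 2 lower gene records and 7 lower TSSs, and a minimum of 50 tags 0 lower gene records. Without the first 1 kb there were 2 lower gene records. A TSS window of 500 bp gave a summed ratio of 0.931 and 1 higher gene, and the 5′ end of the gene record as TSS 1 lower gene. For genes without a close TSS, a set that leaves out Psme2 and Psmd10, the summed TSS ratio was 0.919 with 0 higher. Without Psme1 and Psme2 the sums were 1.07 over the gene record and 0.924 at the TSS.

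The single call of a lower gene record rests on 14 tags of Psmb11, and both calls at the TSS lie close to 2 times. Peak counts were 42 or 43 under the stricter threshold, the larger overlap and the other TSS choices. Without replicates none of these values has an estimate of biological spread, and genes with under 50 tags have intervals of several times. No paired analysis was possible because each condition has 1 library.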

Other observations

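Ribosomal protein genes gave another set of housekeeping complexes. Of 144 genes with symbols of cytosolic ribosomal proteins 89 had at least 10 Ser5 tags, and their median gene-record ratio of LPS to untreated was 0.905 (0.859 to 0.956), with 24 of 89 above 1. Of 77 genes of mitochondrial ribosomal proteins 76 had enough tags, with a median of 0.836 (0.734 to 0.947) and 21 of 76 above 1. Many ribosomal symbols are near-identical copies, whose reads cannot be told apart.

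AI314180, the mouse gene of the proteasome adaptor ECM29, had 240 tags at its TSS in untreated cells and 177 after LPS (0.899), while over the gene record it had 699 and 991 (1.73, 1.57 to 1.91). Psmf1, which encodes a proteasome inhibitor, had 2 tags in each Ser5 library within 1 kb of the TSS of its coding transcript with the longest coding sequence, and 226 and 161 over its record.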
